A study of Saccharomyces cerevisiae with 18 samples.

Results

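Serine synthesis branches from glycolysis in 3 steps, and serine then feeds glycine and the folate-bound one-carbon units used for purines, thymidylate and methionine. In Saccharomyces cerevisiae, glycine can also be made from threonine. The 7 genes described here are SER3 (YER081W) and SER33 (YIL074C), which encode the paired phosphoglycerate dehydrogenases of the opening step, SER1 (YOR184W, phosphoserine aminotransferase), SER2 (YGR208W, phosphoserine phosphatase), SHM1 (YBR263W, mitochondrial serine hydroxymethyltransferase), SHM2 (YLR058C, its cytosolic counterpart) and GLY1 (YEL046C, threonine aldolase). They are 7 of the 6465 gene windows counted, and all 7 were measured in all 18 libraries. The list was chosen by name after SER3 was seen to be higher with IAA in strain RDY73, so that SER3 value, the matching strain difference and every SER3 comparison that uses the same RDY73 DMSO libraries are given as a description, with no test. The other 6 joined as enzymes of the same pathway.

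SER3 is known for its control by SRG1 (YNCE0017W), a noncoding RNA transcribed through the SER3 promoter that represses SER3 in serine-rich medium such as YPD. Cha4 activates SRG1 in response to serine, and the histone chaperones Spt6 and Spt16 are needed for the repression. The genes described here belong to amino acid and one-carbon biosynthesis, where the activators Gcn4 and Bas1 act on some genes through sites with the core TGACTC.

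The study used SLAM-seq: cells take up 4-thiouracil (4tU) into the RNA they make, and iodoacetamide then turns those positions into T-to-C changes in the sequence. Reads with at least 2 conversions, called labelled reads, stand for new RNA, and all reads stand for total RNA. Strain RDY73 carries pGPD1-OsTIR1::HIS3, which drives the auxin receptor OsTIR1 from the GPD1 promoter, and both BET-family bromodomain proteins fused to a degron, as BDF1-3XV5-mAID and BDF2-3XV5-mAID. Strain RDY234 carries the same 3 alleles with an untagged BDF1 copy, pBDF1-BDF1::TRP1. Each strain has 3 groups of 3 biological replicates (A, B and C), all grown in YPD at 30 °C: control (no IAA, no 4tU), DMSO (no IAA, 5 mM 4tU for 4 min) and IAA (1 mM indoleacetic acid, an auxin, for 25 min, then 5 mM 4tU for 4 min). The controls of both strains therefore carry the tagged alleles and OsTIR1 as well. The whole series held 4177363 to 8541751 S. cerevisiae reads and 387855 to 792178 reads of the Schizosaccharomyces pombe spike-in per library. The strain labels were checked on the extra copy: in the controls, total RNA of BDF1 and of its marker TRP1 was lower in RDY73 by log2 -1.68 ± 0.12 and -4.56 ± 0.21 (SE).

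The sequences around SRG1 and SER3 are shown because they hold the arrangement on which the SER3 values rest. They run 5′ to 3′ on the plus strand, from 250 bases before the annotated start to 50 bases after it, in build R64. Capitals mark TATAAA and, in SER3, the ATG.

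SRG1, chrV:321962-322261: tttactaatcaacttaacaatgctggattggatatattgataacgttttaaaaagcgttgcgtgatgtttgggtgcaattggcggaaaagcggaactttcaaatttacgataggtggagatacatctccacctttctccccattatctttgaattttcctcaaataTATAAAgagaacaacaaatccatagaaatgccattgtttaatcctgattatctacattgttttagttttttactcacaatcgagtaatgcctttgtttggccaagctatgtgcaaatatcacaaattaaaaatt
SER3, chrV:322436-322735: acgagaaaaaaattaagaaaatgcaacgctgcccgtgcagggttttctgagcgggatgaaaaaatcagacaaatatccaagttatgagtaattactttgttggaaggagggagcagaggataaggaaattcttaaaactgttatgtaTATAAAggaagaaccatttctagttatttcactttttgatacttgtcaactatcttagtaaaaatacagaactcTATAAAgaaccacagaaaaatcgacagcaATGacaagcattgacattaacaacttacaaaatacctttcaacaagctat

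SRG1 is annotated at chrV:322212-322762, so the SER3 promoter window printed above lies wholly within it. The SRG1 window held TATAAA at 84 bases before the SRG1 start. The SER3 window held TATAAA at 103 and at 29 bases before its coding start. TATAAA, searched on both strands, occurred in 45.4% of 6013 promoter windows of this length.

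TGACTC, searched on both strands, occurred in 479 of the 6013 windows (7.97%) and in 4 of the 7 genes described here. It was not in the SER3, SHM1 or GLY1 window, which says only that these letters are absent there. The 4 matches are shown with 12 bases on either side, each on its gene's strand, with the match in capitals (GAGTCA where TGACTC is on the opposite strand).

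SER33, chrIX:222627-222656, minus strand: cacgctggaaacGAGTCAccgttatgaaaa
SER1, chrXV:679161-679190, plus strand: gcccaaaagtagTGACTCtttctaagcatc
SER2, chrVII:911716-911745, plus strand: ccgagaaagaaaGAGTCAatactaataatc
SHM2, chrXII:259611-259640, minus strand: accataaaggttTGACTCtatctcttgggt

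The first capital of these matches stood 154 (SER33), 184 (SER1), 155 (SER2) and 227 (SHM2) bases before the start codon. A match is a description of the letters and not a binding site measured here.

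The authors counted reads in windows that ran from the gene start to 250 bp past its annotated end. The SER3 window (chrV:322686-324345, plus strand) and the SRG1 window (chrV:322212-323012) share 327 bp, chrV:322686-323012. A read there can enter both counts, and the deposited tables cannot assign it. From the SER3 start to the annotated SRG1 end there are 77 bp with 18 T positions. Reads of the SER3 window covered a mean of 39.1 to 40.7 T positions in the libraries of RDY73 with IAA. They covered 35.0, 31.6 and 31.9 in RDY73 with DMSO, without overlap. In all others the range was 30.0 to 40.4, the highest being RDY234 control replicate B. A read that stayed within the 77 bp could cover at most 18. The part of SRG1 reads in the SER3 counts was not tested. The other genes are annotated at chrIX:221081-222490 (SER33, minus strand), chrXV:679357-680544 (SER1, plus), chrVII:911883-912812 (SER2, plus), chrII:736264-737736 (SHM1, plus), chrXII:257992-259401 (SHM2, minus) and chrV:67629-68792 (GLY1, minus). SER1 shares 155 bp with FYV12 on its strand, and SER33, SER2, SHM1, SHM2 and GLY1 have no same-strand overlap.

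**Figure D1:**
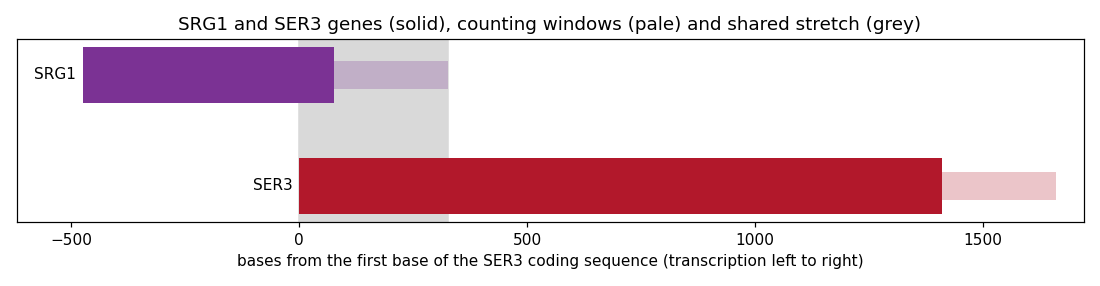
Map of the SRG1 and SER3 genes (solid bars) and the windows in which reads were counted (pale bars), in bases from the first base of the SER3 coding sequence. The grey stretch of 327 bp belongs to both windows.

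In RDY73, new SER3 RNA was higher with IAA while the other 6 genes fell per spike-in read, although 4 of these 6 lay above 0 when scaled to S. cerevisiae reads. Scaled labelled reads, that is labelled reads per S. pombe labelled read brought to the mean spike-in depth, were 61.0, 73.1 and 57.3 for SER3 with DMSO and 114.4, 128.8 and 143.5 with IAA. The 3 IAA libraries all lay above the 3 DMSO libraries. The cultures are bulk samples, so fewer cells and less RNA per cell cannot be told apart in any of these values. The difference was log2 1.03 ± 0.22 (SE), or 2.04-fold. It exceeded that of 5178 of the 5195 genes tested for new RNA, whose median was log2 -1.97. SER3 reads also covered more T positions with IAA than with DMSO in RDY73, and how much of the difference goes with this was not tested.

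SER33, the other phosphoglycerate dehydrogenase, had 18.9, 35.0 and 14.6 scaled labelled reads with DMSO and 9.2, 10.0 and 5.2 with IAA. The groups did not overlap. SER33 fell by 1.42 ± 0.42 on the log2 scale (edgeR quasi-likelihood F test, adjusted p = 0.00125).

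SER1, which transaminates the dehydrogenase product, had 13.7, 16.7 and 26.0 scaled labelled reads with DMSO and 3.1, 5.9 and 8.7 with IAA. Every IAA library was below every DMSO library, and SER1 fell by 1.65 ± 0.46 on the log2 scale (edgeR adjusted p = 0.000581). SER2, which releases free serine, went from 21.0, 19.8 and 31.3 with DMSO to 6.1, 3.3 and 6.1 with IAA. Its log2 change of -2.22 ± 0.44 (edgeR adjusted p = 1.31e-06) was the most negative of the 7. It was the only 1 of them below the median of -1.97 over the 5195 genes tested. With only the RDY73 DMSO and IAA libraries in the fit, 3224 genes were tested and the median was -1.78.

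The paralogous hydroxymethyltransferases, which interconvert serine and glycine, both fell. SHM1 had 11.6, 6.1 and 17.7 scaled labelled reads with DMSO and 1.0, 0.8 and 7.8 with IAA, and the groups overlapped. These rest on only 1, 1 and 9 labelled reads in the IAA libraries. Its log2 change was -1.85 ± 0.60 (edgeR adjusted p = 0.00268). SHM1 passed the filter of at least 10 reads in at least 3 libraries only with the RDY234 libraries in the fit. SHM2 had 35.8, 92.9 and 29.2 scaled labelled reads with DMSO and 26.6, 25.1 and 19.1 with IAA. The groups did not overlap, DMSO replicate B was high and the other DMSO libraries were close to the IAA range. SHM2 fell by 1.08 ± 0.27 on the log2 scale (edgeR adjusted p = 0.000122), and without DMSO replicate B it was at -0.46 and no longer passed.

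GLY1, which makes glycine from threonine, had 178.9, 204.0 and 148.0 scaled labelled reads with DMSO and 79.7, 105.3 and 100.9 with IAA. The groups did not overlap, and GLY1 fell by 0.88 ± 0.18 on the log2 scale (edgeR adjusted p = 4.91e-06).

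All 6 genes other than SER3 were thus called lower, where 83.9% of all tested genes were called lower in this comparison, so the count is near the background. SHM1 is in this count only through the RDY234 libraries. With the RDY73 DMSO and IAA libraries alone in the fit, 2724 of 3224 tested genes were called lower. Their median log2 change was -1.53, beside -1.97 over all genes. Scaled instead to the S. cerevisiae reads, which moved the median of all genes from -1.97 to -0.29, SER33, SER1, SHM2 and GLY1 turned above 0 and GLY1 alone of these was called, at log2 0.83. SER3 was then at 2.73, SER2 at -0.56 and SHM1 at -0.21, and SER2 and SHM1 no longer passed.

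**Figure D2:**
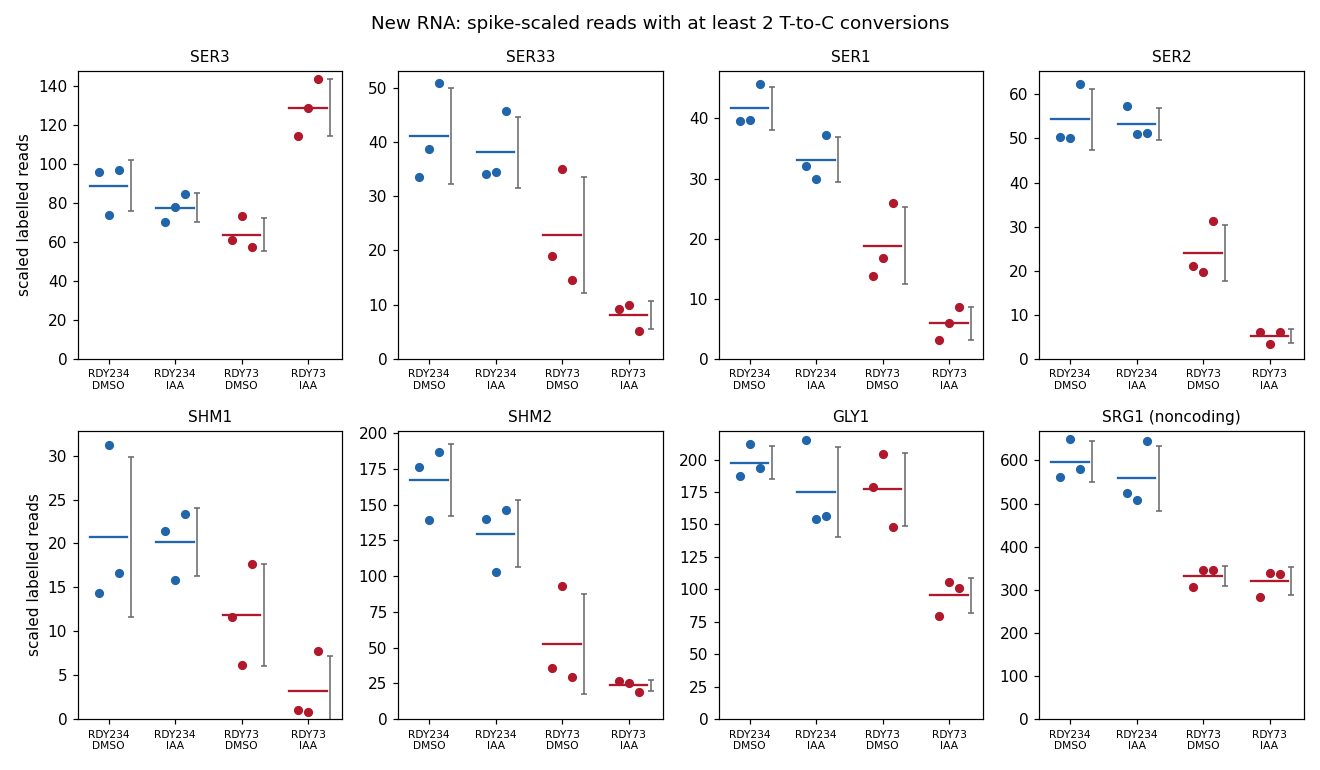
Scaled labelled reads (linear axes from 0) of the 7 genes and SRG1 in each library given 4tU; points are libraries, coloured lines are group means and grey bars are ± SD (n = 3). The SER3 points of RDY73 with IAA lie between 114.4 and 143.5, above all other groups, and SRG1 stays at 284.0 to 345.6 in both RDY73 groups.

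Per spike-in read, the SRG1 window showed no change past the test beside SER3. It shares 327 bp with the SER3 window, so reads of SER3 can enter the SRG1 counts. Their part in the SRG1 values was not tested. New SRG1 RNA was 306.3, 345.6 and 344.9 scaled labelled reads with DMSO and 284.0, 339.5 and 337.4 with IAA in RDY73, and the groups overlapped. The log2 change was -0.05 ± 0.15 (edgeR adjusted p = 0.751), well above the median of all genes. Total SRG1 RNA was 750.0, 797.9 and 755.1 scaled total reads with DMSO and 811.5, 990.8 and 897.2 with IAA. These groups did not overlap, at log2 0.23 ± 0.16 (edgeR adjusted p = 0.169). Relative to the S. cerevisiae reads, SRG1 was called higher, at log2 1.66 in new RNA and 1.38 in total RNA (edgeR adjusted p = 6.81e-39 and 6.59e-11). The genes on either side, AIM9 (YER080W) upstream and UTP7 (YER082C) downstream on the opposite strand, both fell, at log2 -2.80 ± 0.34 and -2.96 ± 0.36 (edgeR adjusted p = 1.97e-15 and 9.58e-15).

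In total RNA of RDY73, SER3 was higher with IAA and 5 of the other 6 genes fell per spike-in read, of which SER2 alone was also called lower when scaled to S. cerevisiae reads. SER3 had 313.6, 339.4 and 266.9 scaled total reads with DMSO and 535.7, 550.1 and 626.6 with IAA, a log2 difference of 0.90 ± 0.15. The IAA libraries again all lay above the DMSO libraries. SER33 went from 249.7, 245.6 and 182.5 with DMSO to 78.4, 93.4 and 89.6 with IAA. SER2 went from 295.3, 208.4 and 221.3 to 64.5, 67.1 and 62.6. Neither pair of groups overlapped, and SER33 and SER2 fell, at log2 -1.36 ± 0.16 and -1.91 ± 0.16 (edgeR adjusted p = 1.79e-10 and 4.9e-14).

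SER1, SHM2 and SHM1 fell per spike-in read in total RNA, at log2 -1.03 ± 0.15, -0.72 ± 0.14 and -0.68 ± 0.14 (edgeR adjusted p = 2.26e-08, 1.05e-05 and 3.96e-05). GLY1 did not pass, at log2 -0.23 ± 0.14 (edgeR adjusted p = 0.147), and its 466.8 to 644.4 scaled total reads with IAA overlapped the 579.4 to 701.3 with DMSO. Without RDY73 IAA replicate B, GLY1 passed at log2 -0.35. The count was 5 of 6 lower, where 77.9% of all tested genes were. Scaled to the S. cerevisiae reads, which moved the median of all genes from -1.24 to -0.10, SHM1, SHM2 and GLY1 were called higher, at log2 0.48, 0.45 and 0.93. SER2 was still called lower (-0.77), while SER33 (-0.21) and SER1 (0.11) did not pass.

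**Figure D3:**
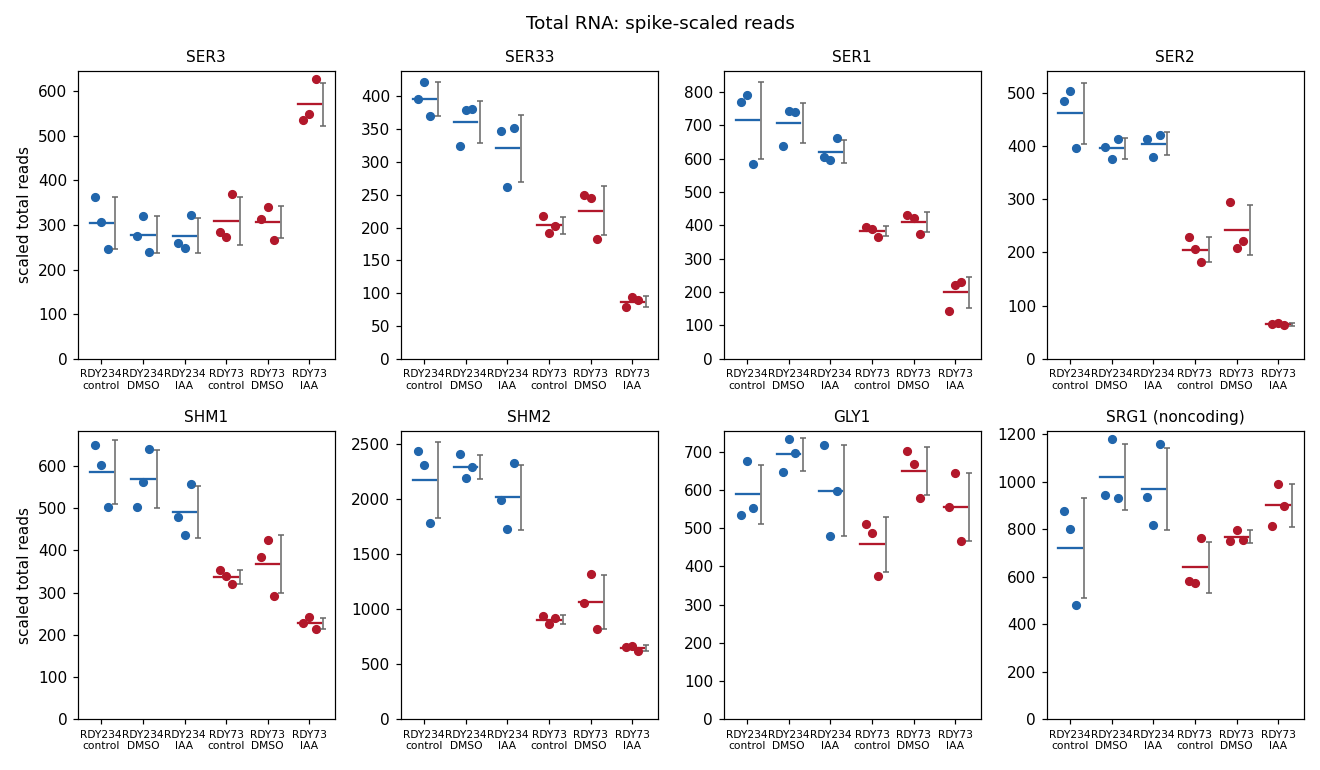
Scaled total reads (linear axes from 0) of the 7 genes and SRG1 in all 18 libraries; points are libraries, coloured lines are group means and grey bars are ± SD (n = 3). SER3 is highest in RDY73 with IAA (535.7 to 626.6), where SER33 (78.4 to 93.4) and SER2 (62.6 to 67.1) are lowest.

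In RDY234, which keeps an untagged BDF1, no change with IAA was detected for any of the 7 genes. New SER3 RNA was 96.1, 73.8 and 96.8 scaled labelled reads with DMSO and 70.1, 78.0 and 84.8 with IAA, and the groups overlapped. The log2 changes of new RNA ran from -0.37 ± 0.19 for SHM2 to -0.03 ± 0.28 for SER2. By edgeR 0 of 7 were called, with adjusted p from 0.977 to 0.995, against 0.0385% of all genes called in either direction. No member was under an unadjusted p of 0.05 either, and DESeq2 called 0 of 7. In total RNA the changes ran from log2 -0.22 ± 0.14 (SHM1 and GLY1) to 0.03 ± 0.14 (SER2). Again 0 of 7 were called by edgeR, 0 by DESeq2 and 0 at an unadjusted p under 0.05, with 0.0328% of all genes called.

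The difference between the strains was tested directly, as the IAA change in RDY73 minus that in RDY234. For new RNA it was 1.21 ± 0.30 for SER3, given as a description. It was -2.20 ± 0.52 for SER2, -1.77 ± 0.73 for SHM1, -1.31 ± 0.53 for SER33 and -1.31 ± 0.56 for SER1 (log2; edgeR adjusted p = 0.000108, 0.0223, 0.0192 and 0.0281). For SHM2 and GLY1 it was -0.71 ± 0.33 and -0.70 ± 0.25 (edgeR adjusted p = 0.0442 and 0.00948). All 6 tested genes were therefore called, beside 74.2% of all genes called lower, and 3 were called without RDY234 IAA replicate C. SER2 was called whichever library was left out. SER33 did not pass without RDY234 IAA replicate C, RDY73 DMSO replicate B or RDY73 IAA replicate C (log2 -0.93 to -1.17). SER1 did not pass without RDY234 IAA replicate C, RDY73 DMSO replicate C or RDY73 IAA replicate A (-0.98 to -1.22). SHM1 did not pass without RDY234 DMSO replicate A, RDY73 DMSO replicate C or RDY73 IAA replicate A or B (-1.29 to -1.57), and GLY1 not without RDY234 IAA replicate A (-0.53). SHM2 did not pass without RDY234 DMSO replicate B, RDY234 IAA replicate A or C, RDY73 DMSO replicate B or RDY73 IAA replicate B or C (-0.10 to -0.76), nor by DESeq2 (-0.74). With reads of at least 1 conversion, SHM2 (-0.47) and GLY1 (-0.39) did not pass. On the relative scale none of the 6 was called lower, and SHM2 (0.89) and GLY1 (0.88) were called higher.

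For total RNA the strain difference was 0.92 ± 0.21 for SER3, given as a description. SER2, SER33, SER1, SHM2 and SHM1 were at -1.94, -1.19, -0.85, -0.53 and -0.47 (log2; edgeR adjusted p = 5.04e-10, 4.2e-06, 0.000257, 0.0145 and 0.0357). GLY1 was at -0.01 ± 0.20 (edgeR adjusted p = 0.969). The count was 5 of 6 lower, with 69.4% of all genes called lower, and it was 3 without RDY234 IAA replicate C or without RDY73 DMSO replicate B. SHM2 did not pass without either of these (-0.36 to -0.42). SHM1 did not pass without any 1 of 7 libraries (-0.35 to -0.46), namely RDY234 DMSO replicates A and B, RDY234 IAA replicate C, RDY73 DMSO replicates A and B, and RDY73 IAA replicates A and C. On the relative scale SER2 (-0.93) was the only 1 still called lower. SHM1 (0.57), SHM2 (0.52) and GLY1 (1.02) were called higher, and SER33 (-0.16) and SER1 (0.17) did not pass.

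**Figure D4:**
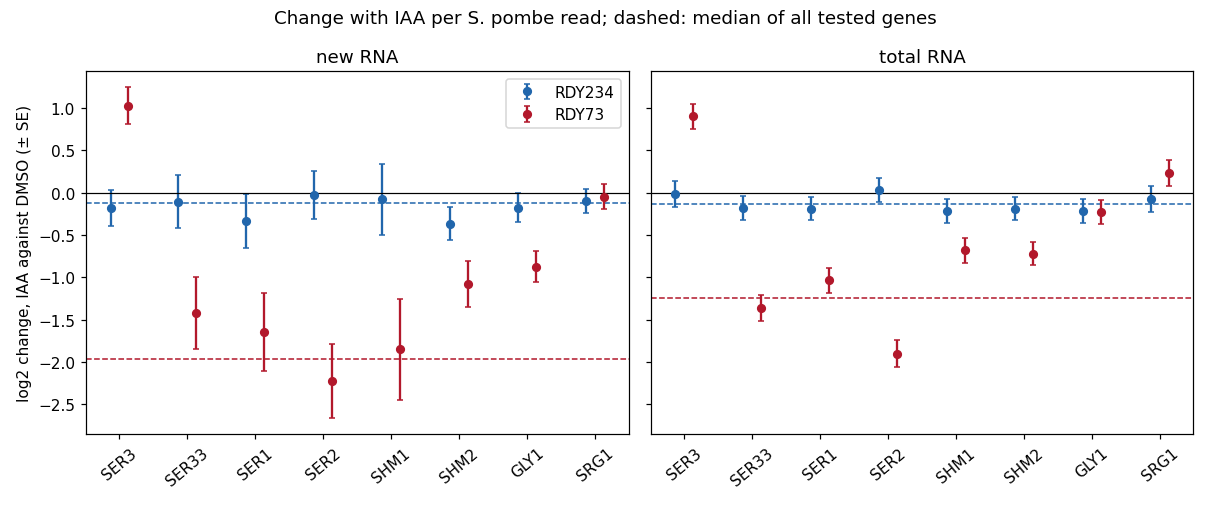
Log2 change with IAA against DMSO per S. pombe read (points, ± SE, 3 libraries a group) for the 7 genes and SRG1, in new RNA (left) and total RNA (right), with the median of all tested genes dashed. In RDY73 SER3 lies at 1.03 and 0.90, above the medians of -1.97 and -1.24, and the RDY234 points lie between -0.37 and 0.03; scaled to S. cerevisiae reads, 4 of the other 6 genes in RDY73 lie above 0.

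The strains were also compared without IAA. With DMSO, new SER3 RNA averaged 63.8 ± 8.26 scaled labelled reads in RDY73 and 88.9 ± 13.1 in RDY234 (SD, n = 3). The groups did not overlap, by the narrow margin of 73.1 against 73.8. The difference was log2 -0.48 ± 0.23, given with no test because the RDY73 DMSO libraries are the baseline of the rise that chose the list. It was -0.18 with reads of at least 1 conversion, -0.76 with TMM over S. pombe genes and 0.65 scaled to S. cerevisiae reads.

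Of the other 6 genes SHM2 differed most per spike-in read, with 52.6 ± 35.0 scaled labelled reads in RDY73 and 168 ± 25.3 in RDY234 (SD, n = 3), at log2 -1.74 ± 0.22 (edgeR adjusted p = 2.11e-13). The size of these strain differences depends on the conversions asked for. With reads of at least 1 conversion the median of all genes was -0.70 instead of -1.13. SHM2 then had 142.7, 255.8 and 123.4 scaled reads in RDY73 and 423.8, 368.5 and 412.9 in RDY234. SER2, SER1 and SER33 were lower in RDY73 by log2 -1.15, -1.13 and -0.90 (edgeR adjusted p = 0.000735, 0.00306 and 0.0145). SHM1 and GLY1 did not pass, at log2 -0.78 ± 0.46 and -0.17 ± 0.18 (edgeR adjusted p = 0.103 and 0.353). The count was 4 of 6 lower, where 79.5% of all genes were lower. With TMM over S. pombe genes, which moved the median of all genes from -1.13 to -1.41, SHM1 (-1.06) and GLY1 (-0.45) were called as well, making 6 of 6. SER33 did not pass without RDY234 DMSO replicate C or RDY73 DMSO replicate A or C (-0.65 to -0.79), and SHM1 passed without that last library (-1.19). Under relative scaling, which moved the median of all genes from -1.13 to -0.01, SHM2 alone was still called lower (-0.63), GLY1 was called higher (0.95), and SER33 (0.22), SER1 (0.01), SER2 (-0.01) and SHM1 (0.35) did not pass.

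In total RNA of the untreated controls, none of which entered the choice of the list, SER3 did not differ detectably between the strains, at 283.9, 273.5 and 370.1 scaled total reads in RDY73 and 362.4, 307.1 and 245.5 in RDY234. The groups overlapped, and the log2 difference was 0.02 ± 0.15 (edgeR adjusted p = 0.899), with an all-gene median of -0.68. SER33 was lower in RDY73, at 217.3, 191.7 and 202.0 against 395.3, 421.7 and 369.6. The groups lay far apart, at log2 -0.95 ± 0.14 (edgeR adjusted p = 3.47e-07). SHM2, SER2, SER1, SHM1 and GLY1 were lower by log2 -1.27, -1.16, -0.90, -0.79 and -0.36 (edgeR adjusted p = 9.74e-10, 4.99e-09, 7.01e-07, 4.68e-06 and 0.0224). The count was 6 of 7 lower, where 77.5% of all genes were. GLY1 lost its call without RDY234 control replicate B or RDY73 control replicate C (-0.24 to -0.25) and with TMM over S. pombe genes (-0.22). On the relative scale, which moved the median of all genes to -0.02, SHM2 (-0.60), SER2 (-0.50) and SER33 (-0.29) were still called lower and SER3 was called higher (0.69). SER1 (-0.22), SHM1 (-0.12) and GLY1 (0.30) then did not pass.

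Between DMSO with 4tU and the control, no change in total RNA of these genes passed the adjusted threshold. The labels used here do not say whether the controls received DMSO, so 4tU and DMSO cannot be told apart. DMSO with 4tU against the control called 0 of the 6 genes other than SER3 in RDY73 and 0 of 7 in RDY234, by edgeR and by DESeq2, beside 0.656% of all genes in RDY73 and 0.574% in RDY234. At an unadjusted p under 0.05 it was 1 gene in RDY73 and 0 in RDY234. SER3, given as a description in RDY73, was at log2 -0.02 ± 0.15. GLY1, the gene under the unadjusted threshold, averaged 650 ± 63.1 scaled total reads with 4tU and 458 ± 72.3 without in RDY73 (SD, n = 3). The groups did not overlap, at log2 0.50 ± 0.14 (edgeR adjusted p = 0.128), and it was called when the fit held only the compared libraries.

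The windows of SER3 and SER33 are both 1660 bp long. In these 3′ mRNA-seq libraries, equal length alone does not make their reads comparable. The SER3 window shares 327 bp with SRG1, while the SER33 window has no same-strand overlap. Reads of SRG1 can therefore enter the SER3 side only, and their part in the shares below was not tested. Of the summed SER3 and SER33 reads, SER3 made up 43.3 ± 4.08% in the RDY234 controls, 43.5 ± 4.23% with DMSO and 46.4 ± 3.15% with IAA (SD, n = 3). In RDY73 it made up 60.0 ± 4.17% in the controls, 57.7 ± 1.88% with DMSO and 86.7 ± 1.09% with IAA. The 3 RDY73 IAA libraries, at 85.5 to 87.5%, stood clear of every other library, the next being at 64.7%. Among labelled reads the share was 68.4 ± 4.93% and 67.2 ± 2.17% in RDY234 with DMSO and IAA, and 74.5 ± 6.24% and 93.9 ± 2.21% in RDY73. These shares use the SER3 counts that chose the list, and carry no test. Multimapped reads were at most 1.43% of the SER3 reads and 0.943% of the SER33 reads in any library, and leaving them out gave 86.7 ± 1.08% in RDY73 with IAA.

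The labelled share, the percentage of a window's reads with at least 2 conversions, ordered the genes within a strain. In RDY234 with DMSO it was 34.7 ± 8.11% for SER3, 30.4 ± 2.01% for GLY1, 14.6 ± 0.97% for SER2, 12.05 ± 1.40% for SER33, 7.74 ± 0.62% for SHM2, 6.29 ± 0.32% for SER1 and 3.96 ± 1.95% for SHM1 (SD, n = 3). SER3 and GLY1 overlapped in that order, and so did SER2 with SER33 and SER1 with SHM1. SRG1 stood above all of them, at 62.8 ± 1.06%. Reads of SRG1 can enter the SER3 window, so the place of SER3 in this order may not be that of SER3 mRNA alone. The part of SRG1 reads in the SER3 share was not tested. The share depends on the T positions a read covers as well as on the age of the RNA. A mean of 31.8 T positions was covered per SER3 read in these libraries, 25.2 per GLY1 read and 38.7 per SHM1 read.

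In RDY73 the labelled share of SER3 was 19.9 ± 1.14% with DMSO and 22.3 ± 1.51% with IAA, with 18.8 to 21.1% and 20.7 to 23.8% overlapping. That of GLY1 was 26.1 ± 3.29% and 17.2 ± 3.57%, with every IAA library below every DMSO library. SRG1 was at 41.4 ± 1.77% and 35.1 ± 1.32%, also without overlap. Reads of SER3 can also enter the SRG1 window. The shares of SER33, SER1, SER2, SHM1 and SHM2 overlapped between the RDY73 groups. A lower share was not particular to GLY1 and SRG1. Over all windows, 224539 of 5973341, 183128 of 4177363 and 222118 of 5410844 reads were labelled in RDY73 with DMSO. With IAA it was 103348 of 4525136, 146333 of 6013359 and 144533 of 5568617. SER3 reads covered a mean of 31.6 to 35.0 T positions with DMSO and 39.1 to 40.7 with IAA in RDY73. The effect of this on the SER3 share was not tested. With IAA in RDY234 the 7 shares differed from DMSO by -5.03 to 0.59 percentage points. Exact two-sided permutation tests of these 7 gave p from 0.3 to 0.8, adjusted p from 0.7 to 0.8, where 3 libraries against 3 allow no p below 0.1.

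**Figure D5:**
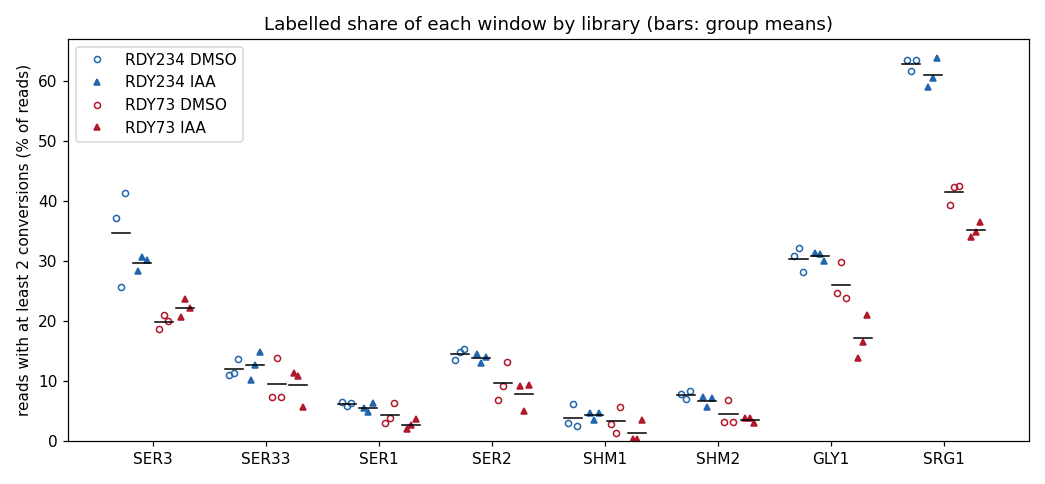
Percentage of the reads of each window with at least 2 conversions, by library (open circles DMSO, filled triangles IAA, black bars group means, linear axis from 0). SER3 and GLY1 lie highest of the 7, at 34.7% and 30.4% in RDY234 with DMSO, below SRG1 at 62.8%. The SER3 window can include reads of SRG1, and the SRG1 window reads of SER3.

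Without 4tU few reads carried 2 conversions. Over the 3 RDY73 controls SER3 had 0 of 961 reads, which allows a share of up to 0.312% (3 counts, counting error only). Over the RDY234 controls it had 3 of 921 reads, 0.326%. The other 6 genes had 0 to 0.559% in RDY73 and 0.283 to 0.903% in RDY234, the zeros being SER1 (0 of 1197 reads, up to 0.251%) and SHM1 (0 of 1054 reads, up to 0.285%).

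Across the 12 libraries given 4tU, SER3 per spike-in read ran opposite to the other members. The Pearson correlations of log2 scaled labelled reads between SER3 and the other 6 were all negative, from -0.319 with SHM2 to -0.685 with GLY1, while those among the other 6 ran from 0.655 to 0.95. Scaled to S. cerevisiae reads, SER33, SER1, SHM2 and GLY1 were above 0 with IAA in RDY73, as SER3 was. The 12 libraries share their strain and treatment groups, the general fall per spike-in read is common to most genes, and the SER3 rise that chose the list is part of these values. The 5 genes most like SER3 among 5194 were TDH2 (0.92), a glyceraldehyde-3-phosphate dehydrogenase isozyme, NRD1 (0.92), an RNA-binding factor of transcription termination, ENO1 (0.734), an enolase, the small nucleolar RNA SNR61 (0.718) and RTC3 (0.692).

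The wider pathway was followed with a list of 26 genes, chosen with results of these data known: SRG1, glycine cleavage, folate and one-carbon enzymes, the cysteine and phosphatidylserine branches, and regulators. In RDY73 with IAA, 21 of the 25 tested fell in new RNA and 0 rose, with a median log2 change of -1.53. The most negative were FOL1 and FOL3, enzymes of folate synthesis, at -4.72 ± 0.91 and -3.52 ± 1.12, the activator CHA4 at -2.81 ± 0.56, dihydrofolate reductase DFR1 at -2.51 ± 0.78 and the histone chaperone SPT6 at -1.92 ± 0.20 (edgeR adjusted p = 7.94e-07, 0.00247, 1.44e-06, 0.002 and 1.62e-19). In total RNA 22 of 26 fell and 0 rose, with FOL3 at -2.52 ± 0.34 and DFR1 at -1.97 ± 0.20 (edgeR adjusted p = 4.78e-09 and 1.01e-11). Their share lies near that of all genes given above, and scaled to the S. cerevisiae reads the medians of the list turned to log2 0.16 in new RNA (7 called higher, 1 lower) and 0.29 in total RNA (12 higher, 4 lower).

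In RDY234 IAA called 0 of the 25 in new RNA and 0 of the 26 in total RNA by edgeR, and 0 in each by DESeq2, with 1 and 2 genes at an unadjusted p under 0.05. DMSO with 4tU against the control called 0 of the 26 in either strain by edgeR and by DESeq2. At an unadjusted p under 0.05 it was 0 in RDY73 and 3 in RDY234. The strain difference in the IAA change was called lower for 17 of 25 genes in new RNA and for 17 of 26 in total RNA, led by FOL1 at -4.16 ± 1.05 and by FOL3 at -2.55 ± 0.41. All genes were called lower at 74.2% and 69.4%, and on the relative scale the list had 6 higher and 0 lower in new RNA and 11 higher and 3 lower in total RNA. Without IAA, all 25 tested were lower in RDY73 in new RNA with DMSO, led by the GTP cyclohydrolase FOL2 at -2.30 ± 0.33, where 79.5% of all genes were. On the relative scale 1 was lower and 2 were higher, with a median of -0.12. In total RNA of the controls 24 of 26 were lower, led by MET13, a methylenetetrahydrofolate reductase, at -1.43 ± 0.19, where 77.5% of all genes were. On the relative scale 2 were lower and 5 higher, with a median of -0.09. SRG1 itself was lower in new RNA with DMSO, at -0.85 ± 0.15 (edgeR adjusted p = 7.53e-08), and at -0.45 with reads of at least 1 conversion. In total RNA of the controls it was at -0.17 ± 0.16 (edgeR adjusted p = 0.305).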

How the data were processed

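The data are SLAM-seq read counts from 18 yeast libraries. Per the series design text, paired-end reads of 150 bp from 3′ mRNA-seq libraries passed through fastp and bbduk before SLAM-DUNK. The file headers give SLAM-DUNK 0.4.3, and the submitters' processing notes give fastp 0.23.2 and the builds R64 and ASM294v2. For each window the authors deposited a count of reads, a count of those with at least 1 or at least 2 conversions, and a count of multimapped reads. The use of molecular identifiers is not given in the sources used here; limits from read numbers cover counting error only.

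The members and lists were chosen with earlier results of these data known. Genes with at least 10 reads in at least 3 libraries were kept, which left 5195 for new RNA (12 libraries) and 6100 for total RNA (18 libraries). Library size was the sum of S. pombe reads, labelled or total to match (spike-in mass ratio 1 to 19). edgeR 4.0.16 (R 4.3.3) fitted 1 mean per group, with the quasi-likelihood F test, Benjamini-Hochberg adjustment over all tested genes and a threshold of 0.05; errors of log2 changes are the change divided by the square root of F. The procedure was tested on simulated data. DESeq2 1.42.0, other scalings, filters and left-out libraries were alternatives. All 7 members were named, pathway genes only where called (at most 5 per comparison), besides the SER3 neighbours and the 5 genes most correlated with it. Promoters were read from the R64 genome. The replicate letters did not pair the libraries.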

Additional observations from a re-analysis of the deposited data

Results flagged for a closer look

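The change with IAA differed between the strains for 6 genes in new RNA and 5 in total RNA, by edgeR's test of the difference itself (RDY73 minus RDY234, log2). In new RNA the differences were -2.20 for SER2, -1.77 for SHM1, -1.31 for SER33, -1.31 for SER1, -0.71 for SHM2 and -0.70 for GLY1. In total RNA they were -1.94 for SER2, -1.19 for SER33, -0.85 for SER1, -0.53 for SHM2 and -0.47 for SHM1. SER3, chosen for its difference, is left out here. The all-gene medians of the same differences were -1.82 in new RNA and -1.10 in total RNA. Of all genes, 74.2% and 69.4% were called lower, near which these counts lie. Without RDY234 IAA replicate C, 3 genes were called in each. The SHM2 call in new RNA was also lost by DESeq2, with TMM over S. pombe genes and with no filter. Scaled to S. cerevisiae reads, no gene was called lower in new RNA and SER2 alone in total RNA, while SHM2 and GLY1 (new RNA) and SHM1, SHM2 and GLY1 (total RNA) were called higher.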

How the results depend on the processing

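Of 1609 log2 values recomputed under the alternatives, 1528 counted as unchanged, 48 were no longer called, 6 became called and 21 reversed. The other 6, all of SER3 and given as a description, moved by more than the replicate spread. Unchanged values kept their direction and side of the threshold, or passed it in neither fit. For SER3 values given as a description, unchanged means a move smaller than the replicate spread. All 21 reversals came with scaling to S. cerevisiae reads by TMM, whose construction removes a change shared by most genes. Under it the count of called members was 1 for new RNA with IAA in RDY73 (GLY1, higher), 2 for its strain difference (SHM2 and GLY1, both higher) and 2 for RDY73 against RDY234 with DMSO (GLY1 higher, SHM2 lower). For new RNA with IAA in RDY73 the reversed values were 0.28 (SER33), 0.03 (SER1), 0.64 (SHM2) and 0.83 (GLY1), and for the strain difference 0.27, 0.23, 0.89 and 0.88 in the same order. For new RNA between strains with DMSO they were 0.65 (SER3), 0.22 (SER33), 0.01 (SER1) and 0.95 (GLY1). For total RNA with IAA in RDY73 they were 0.11 (SER1), 0.48 (SHM1), 0.45 (SHM2) and 0.93 (GLY1), and for the strain difference 0.17, 0.57, 0.52 and 1.02 in the same order. For total RNA of the controls GLY1 reversed to 0.30. With only the compared groups in the fit, 1 member was called for 4tU in RDY73, and SHM1 gave no value for new RNA with IAA there, having failed the filter. Leaving out 1 library gave 3 to 6 called members for the strain difference in new RNA, 3 to 5 for that in total RNA and 3 to 4 between the strains with DMSO.

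The replicate block called 6 members in new RNA with IAA in RDY73 and 5 in total RNA, as without it. Same-letter libraries did not deviate together (45 pairs, median r -0.01, range -0.10 to 0.14), and 8 of 18 libraries correlated best with their own letter. Depth limits SHM1 most, with 1 to 33 labelled reads per library given 4tU.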
